A study of Rattus norvegicus with 12 samples.

Results

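Mammary glands of ovariectomized rats that received 17β-estradiol (E2) and nothing else were compared with those of rats that received only the vehicle. The comparison takes in 6 of the 12 arrays of the study, all those labelled as vehicle or E2 alone, with 1 rat per array and 3 rats per group. All rats were intact female Lewis rats until both ovaries were removed at about 10 weeks of age, so the vehicle animals are a model of hormone withdrawal and not of a cycling animal. Dosing began 14 days later. E2 was injected under the skin at 4 µg per kg per day, dissolved in dimethyl sulfoxide (DMSO) and castor oil, and the vehicle rats were injected with the DMSO and castor oil mixture alone. There were 3 treatments, given 24 hr apart, and the glands were removed 24 hr after the last of them (the labels give a treatment time of 48 h). The other 6 arrays hold rats given 3-methylcholanthrene (3-MC, 15 mg per kg per day), alone or with E2, and were used in 2 ways. They are a second set of animals in which E2 was added, and they enter the estimate of the spread between rats behind every SE and p below. RNA came from whole glands and is therefore a mixture of duct epithelium, fat, connective tissue, vessels, nerve and blood cells, and in such bulk samples fewer cells of a type and less RNA per cell cannot be told apart.

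Estrogen acts in the mammary gland mainly through estrogen receptor α, a transcription factor that the hormone switches on and that binds DNA directly or through partners such as AP-1 and SP1. In the developing gland only some luminal cells hold the receptor. They answer the hormone by making the progesterone receptor and local growth factors such as amphiregulin, which act on neighbouring epithelium and stroma, so a rise of a transcript in the whole gland can be direct or passed on from cell to cell.

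Values are linear signal intensities of probe sets on the Affymetrix rat gene array. Changes are differences of mean log2(intensity + 16) between E2 and vehicle rats, with the standard error (SE) of limma's fit, and the fold values are those differences made linear. To pass, a probe set had to differ by 1.5-fold or more and have an adjusted p (Benjamini-Hochberg) below 0.05. Of 23371 probe sets tested, 370 passed (1.58%). Taking for each gene the brightest probe set that carries its symbol alone left 12420 genes, of which 243 passed (1.96%), 187 upward (1.51%) and 56 downward (0.451%). In none of these 243 genes did the intensities of the 3 E2 rats overlap those of the 3 vehicle rats, while 20.1% of all genes tested were free of overlap. The upward count was 47 with E2 rat 2 left out, 63 with E2 rat 1 left out, 92 with vehicle rat 1 left out and 95 with vehicle rat 2 left out, and the downward count 11 with E2 rat 2 left out, 15 with vehicle rat 1 left out, 16 with E2 rat 1 left out and 28 with E2 rat 3 left out. There were 54 genes (0.435%) that passed in the fit of all rats and again in each of the 12 fits that left out 1 rat. Each array is another animal, so the p-values measure the spread between rats, taken over all 4 groups of the study. With the 6 vehicle and E2 arrays fitted alone, 270 probe sets rose and 71 fell, and the methods' t-test with adjustment gave 7 and 0 (495 and 208 without adjustment, with the same 1.5-fold limit here and below). Genes of cell division, milk and lipid metabolism made up 73 of the 243, and the account below concerns mainly the other 170 (135 higher, 35 lower), with lists of transporters, enzymes, transcription factors, secreted factors and stroma. Of the 73, Slc25a1, Slc2a4, Pparg, Retn, Wap, Muc1 and Lpl also belong to these lists or to the cell type markers and are counted there. A further 117 probe sets that passed carry no single gene symbol and are not named.

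Outside the lists of division, milk and lipid, the genes that E2 raised most encode hormone receptors, a growth factor, metabolic enzymes, proteins of fluid secretion and histones. The 12 largest rises ran from 3.31-fold to 14.8-fold. Those lists were matched by symbol. The list of division names the histone gene H1f5 by its older symbol Hist1h1b, so H1f5 was not matched and is counted outside it. The lists hold neither Hist1h2ail1, another histone gene, nor Dlgap5l2. The name of Dlgap5l2 follows that of the mitotic gene Dlgap5, and a part of Dlgap5l2 in division was not tested. In the 3-MC rats described below, Dlgap5l2 changed by 2.30 with E2 and Dlgap5 by 0.21. The largest rise was that of Pgr, the progesterone receptor, a classical target of the estrogen receptor. Pgr read 38.3, 45.6 and 31.1 in the vehicle rats and 795, 838 and 722 in the E2 rats, a 14.8-fold rise (log2 change 3.89, SE 0.24, adjusted p = 8.9e-06). Every E2 rat thus lay far above every vehicle rat, and the E2 rats lay close together. Areg, amphiregulin, a ligand of the epidermal growth factor receptor, read 44.1, 20.1 and 50.4 in the vehicle rats and 572, 498 and 526 in the E2 rats and rose 10.4-fold (log2 change 3.38, SE 0.29, adjusted p = 4.0e-05). For Areg too, the groups were far apart.

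Bco2 came next among the genes outside the lists of division, milk and lipid. It encodes the mitochondrial carotenoid-cleaving oxygenase and read 38.9, 46.8 and 47.2 in the vehicle rats and 526, 481 and 359 in the E2 rats, a 7.75-fold rise (log2 change 2.95, SE 0.25, adjusted p = 4.2e-05). Tph1, tryptophan hydroxylase, which catalyses the rate-limiting step of serotonin synthesis in peripheral tissues, read 62.3, 48.5 and 49.9 in the vehicle rats and 310.3, 313 and 315 in the E2 rats and rose 4.75-fold (log2 change 2.25, SE 0.20, adjusted p = 5.3e-05). The E2 rats spanned a very narrow range for Tph1 and a wider one for Bco2, without overlap with vehicle in either. Cyp2e1, a cytochrome P450 that oxidizes ethanol and other small molecules, read 70.8, 50.2 and 29.0 in the vehicle rats and 320.5, 170.0 and 317 in the E2 rats (log2 change 2.11, SE 0.32, adjusted p = 0.0060). E2 rat 2 was the lowest of its group for Cyp2e1 and still stood above every vehicle rat.

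Proteins of fluid secretion and the prolactin receptor were among the 12. Aqp5, a water channel of secretory epithelia, read 207, 363 and 275 in the vehicle rats and 1053, 1303 and 1297 in the E2 rats, a 4.22-fold rise (log2 change 2.08, SE 0.22, adjusted p = 0.00025). Clca1, a secreted regulator of calcium-activated chloride channels, read 903, 837 and 1029.6 in the vehicle rats and 3784, 3895 and 3613 in the E2 rats and rose 4.04-fold (log2 change 2.01, SE 0.18, adjusted p = 5.3e-05). Both groups were tight for Clca1. Prlr, the prolactin receptor of luminal cells, read 219.9, 193 and 155 in the vehicle rats and 669.7, 718 and 591 in the E2 rats and rose 3.31-fold (log2 change 1.73, SE 0.18, adjusted p = 0.00021). The other members of the 12 largest rises were Dlgap5l2 (log2 change 2.39, adjusted p = 5.3e-05), the linker histone H1f5 (2.13, adjusted p = 0.0067), the histone gene Hist1h2ail1 (1.87, adjusted p = 0.032) and the lipocalin gene Mup5 (1.86, adjusted p = 0.0029). H1f5, Hist1h2ail1 and Mup5 belong to families of near-identical genes, so their signal may be shared with relatives, and a second probe set of Hist1h2ail1 changed by only 0.60 and did not pass (adjusted p = 0.43). Of these 12 genes the call of Hist1h2ail1 alone was lost in fits that left out 1 rat, namely without E2 rats 1, 2 or 3, vehicle rats 1 or 2 or E2 + 3-MC rat 2 (largest adjusted p = 0.15).

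Stretches of the promoter of 4 of these responding genes are given to show where the short arm of an estrogen response element, here called the arm, does and does not occur near the start of transcription. They are the 250 bases before the start site of the RefSeq annotation on the rat assembly GRCr8, read 5′ to 3′ on the strand of the gene, with every GGTCA, or TGACC for the other strand, in capitals. Areg stands for the strongest responders, and Tph1 and Aqp5 for responders with more than 1 arm. Smpdl3a is a gene that fell and was picked for its arms. Of the other large falls with a window, Sfrp2 and Angptl8 held 1 arm each and the rest none.
Areg, chr14:17265642-17265891, minus strand: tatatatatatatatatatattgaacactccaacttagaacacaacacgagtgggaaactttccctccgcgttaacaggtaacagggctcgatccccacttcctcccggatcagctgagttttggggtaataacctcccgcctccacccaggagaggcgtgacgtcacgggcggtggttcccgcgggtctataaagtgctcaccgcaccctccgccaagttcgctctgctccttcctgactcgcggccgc
Tph1, chr1:106314629-106314878, minus strand: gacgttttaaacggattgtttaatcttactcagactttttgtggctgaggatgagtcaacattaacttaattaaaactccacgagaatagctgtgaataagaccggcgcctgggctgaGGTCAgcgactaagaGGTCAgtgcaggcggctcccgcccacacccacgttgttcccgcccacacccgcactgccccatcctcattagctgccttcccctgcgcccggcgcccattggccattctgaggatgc
Aqp5, chr7:132601278-132601527, plus strand: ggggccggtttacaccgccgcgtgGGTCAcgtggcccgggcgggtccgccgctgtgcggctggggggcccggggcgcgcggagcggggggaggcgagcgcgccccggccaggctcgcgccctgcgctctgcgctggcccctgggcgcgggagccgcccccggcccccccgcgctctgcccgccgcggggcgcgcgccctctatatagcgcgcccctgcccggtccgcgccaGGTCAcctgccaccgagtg
Smpdl3a, chr20:37678754-37679003, plus strand: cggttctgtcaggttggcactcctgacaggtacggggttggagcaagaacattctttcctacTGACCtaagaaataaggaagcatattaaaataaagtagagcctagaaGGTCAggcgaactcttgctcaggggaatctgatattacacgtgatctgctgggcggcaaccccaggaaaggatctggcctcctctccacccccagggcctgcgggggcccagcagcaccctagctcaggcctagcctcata

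No arm was present before the start of Areg. Tph1 held them at positions -132 and -117, counted to the first base of the match, and another in the 50 bases after the start. Aqp5 held them at -226 and -19, and Smpdl3a at -188 and -141. Windows of 300 bases, from 250 before to 50 after the start, were at hand for 10222 of the genes tested, 152 that rose and 41 that fell. The full element GGTCANNNTGACC was found in 3 of the 10222 windows (0.0293%) and in 0 of those of genes that rose or fell. The arm, counted on both strands and also inside a full element, was found in 38.7% of all windows, 38.8% of those of genes that rose and 36.6% of those of genes that fell. The AP-1 motif TGANTCA was found in 5.53% of all windows, in 12 windows of genes that rose (7.89%) and in 5 of genes that fell (12.2%). The SP1 motif GGGCGG, on both strands, was found in 56.2%, 57.9% and 63.4% in the same order. A match describes the letters of a short window and says nothing on binding.

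**Figure D1:**
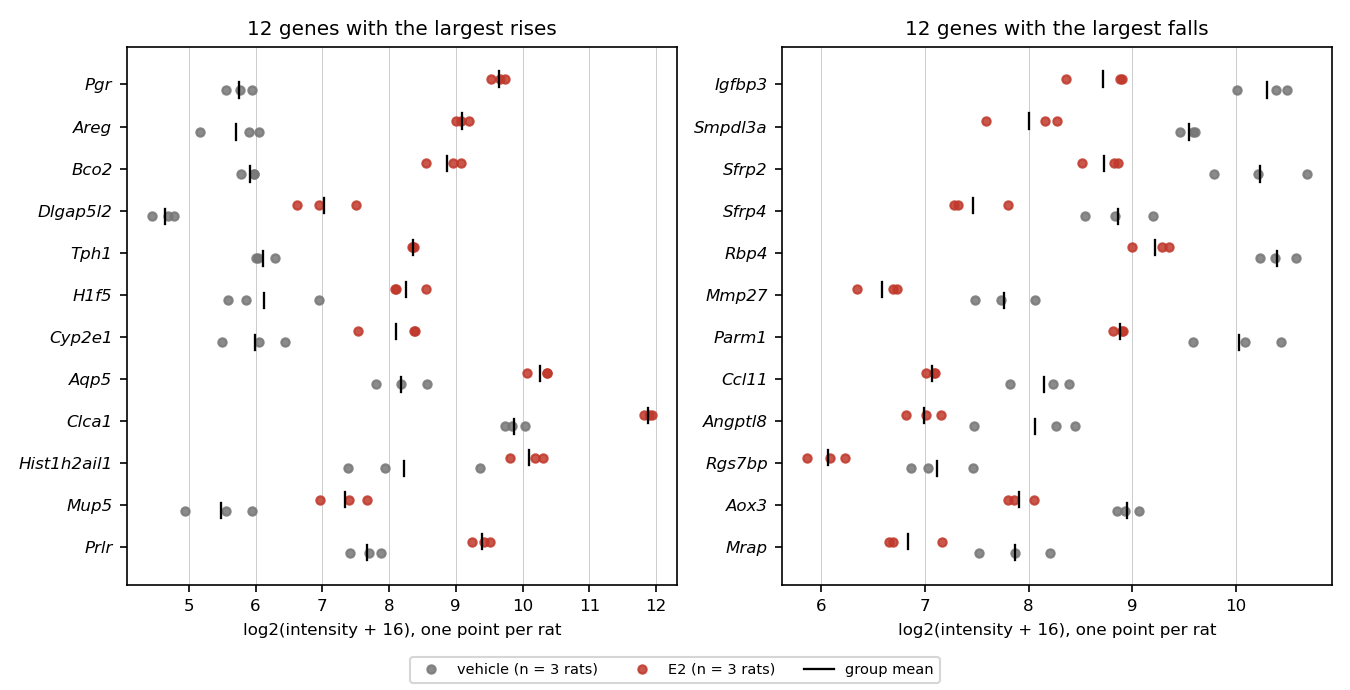
Log2(intensity + 16) of the 12 genes with the largest rises (left) and the 12 with the largest falls (right) outside the lists of cell division, milk and lipid metabolism, 1 point per rat for 3 vehicle rats (grey) and 3 E2 rats (red), with black ticks at the group means. The groups do not overlap for any of the 24 genes, Pgr shows the widest gap (log2 change 3.89), and the falls are smaller than the rises (the largest is that of Igfbp3, log2 change -1.58).

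Outside the lists of division, milk and lipid, the genes that fell most encode secreted proteins and enzymes, among them 2 antagonists of Wnt signalling and the carriers of insulin-like growth factors and of retinol. Igfbp3, the main carrier protein of insulin-like growth factors, read 1321, 1426 and 1015 in the vehicle rats and 312, 457 and 463 in the E2 rats and fell 2.99-fold (log2 change -1.58, SE 0.30, adjusted p = 0.019). Sfrp2 and Sfrp4, which encode secreted antagonists of Wnt signalling, fell together. Sfrp2 read 1175, 869.8 and 1632 in the vehicle rats and 349.8, 436 and 449 in the E2 rats (log2 change -1.50, SE 0.28, adjusted p = 0.018). Sfrp4 read 439.6, 358 and 573 in the vehicle rats and 143, 139 and 208 in the E2 rats (log2 change -1.39, SE 0.28, adjusted p = 0.026). Rbp4, the plasma carrier of retinol, read 1517, 1187 and 1312 in the vehicle rats and 609.6, 497 and 639 in the E2 rats and fell 2.27-fold (log2 change -1.18, SE 0.18, adjusted p = 0.0060). All 3 E2 rats lay below all vehicle rats in each of these 4 genes, with the vehicle rats the more scattered for Sfrp2.

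Smpdl3a, an acid sphingomyelinase-like phosphodiesterase, read 751, 762 and 687 in the vehicle rats and 177, 270.4 and 293 in the E2 rats and fell 2.91-fold (log2 change -1.54, SE 0.21, adjusted p = 0.0031). Aox3, an aldehyde oxidase, read 522, 448 and 473 in the vehicle rats and 216, 207 and 249 in the E2 rats and fell 2.07-fold (log2 change -1.05, SE 0.15, adjusted p = 0.0043). E2 rat values were tightly grouped for Aox3 and less so for Smpdl3a. The remaining large falls were those of the mucin-like gene Parm1 (log2 change -1.16, adjusted p = 0.016), the eosinophil chemokine Ccl11 (-1.08, adjusted p = 0.036), the lipoprotein lipase regulator Angptl8 (-1.07, adjusted p = 0.045), the G protein regulator partner Rgs7bp (-1.06, adjusted p = 0.016), the melanocortin receptor accessory protein Mrap (-1.03, adjusted p = 0.023) and the metalloproteinase Mmp27 (-1.17, adjusted p = 0.0492). Smpdl3a, Rbp4 and Aox3 passed in every fit without 1 rat. The call was lost for Igfbp3 without E2 rats 1 or 2 or vehicle rats 1 or 2 (largest adjusted p = 0.11), for Sfrp2 without E2 rats 1 or 2 or vehicle rat 1 (largest adjusted p = 0.10), and for Sfrp4 without E2 rats 1 or 2 or vehicle rats 1 or 3 (largest adjusted p = 0.14). It was lost for Parm1 without E2 rats 1 or 2 or vehicle rat 1 (largest adjusted p = 0.084), for Rgs7bp without E2 rat 2 or vehicle rat 1 (largest adjusted p = 0.11), and for Mrap without E2 rats 1 or 2 or vehicle rat 1 (largest adjusted p = 0.13). It was lost for Ccl11 without E2 rats 1, 2 or 3, vehicle rats 1 or 3 or E2 + 3-MC rats 2 or 3 (largest adjusted p = 0.16), for Angptl8 without E2 rats 1, 2 or 3, vehicle rats 1 or 3 or E2 + 3-MC rats 1, 2 or 3 (largest adjusted p = 0.20), and for Mmp27 without E2 rats 1, 2 or 3, vehicle rats 1, 2 or 3 or E2 + 3-MC rats 1, 2 or 3 (largest adjusted p = 0.22).

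Markers of the cell types of the gland differed between the groups too, with several luminal markers up and some adipocyte markers down. The level of a list in a rat is the median, over its markers, of the log2 difference from the vehicle mean. That of the 19 luminal epithelial markers was 0.01, 0.12 and -0.01 in the vehicle rats and 0.82, 0.71 and 0.47 in the E2 rats, and 9 of them rose, against 1.51% of all genes (Prlr, Muc1, St14, Cldn7, Esrp1, Krt18, Cd24, Cdh1 and Cldn3). That count was 2 without E2 rats 1 or 2, 4 without vehicle rat 1, and 5 without vehicle rat 3. Krt8 and Epcam, defining luminal genes, were at 348 ± 47.2 and 779 ± 139.8 in vehicle rats, so the labelled tissue held epithelium in both groups, and did not pass (0.85 and 0.68, adjusted p = 0.065 and 0.13). The basal and myoepithelial list of 10 was at -0.10, 0.01 and 0.06 in vehicle rats and 0.30, 0.04 and 0.04 in E2 rats. Of these, 3 rose, against 1.51% of all genes, namely Krt14 (1.36, adjusted p = 0.027), Krt17 (1.18, adjusted p = 0.022) and Lgals7 (1.08, adjusted p = 0.028). Acta2 was at -0.12 (adjusted p = 0.79). The basal count was 0 without E2 rats 1 or 2 or vehicle rats 1 or 2, and 2 without vehicle rat 3.

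For adipocytes, fibroblasts, endothelium and pericytes the level of the list was lower in each E2 rat than in each vehicle rat. Few or none of the single markers passed. Before adjustment, limma had 941 of all 12420 genes higher and 713 lower with p under 0.05. The 12 adipocyte markers were at 0.10, 0.06 and -0.18 in vehicle rats and -0.34, -0.46 and -0.28 in E2 rats. There were 3 falls (Retn, Pparg and Lpl, against 0.451% of all genes). That count was 1 without E2 rats 1 or 2 or vehicle rat 1, and 2 without E2 rat 3 or vehicle rat 2. The 12 fibroblast markers were at -0.11, -0.08 and 0.27 in the vehicle rats and -0.66, -0.51 and -0.26 in the E2 rats, and 0 passed in limma (7 lower and 0 higher with p under 0.05 before adjustment). In the methods' t-test without adjustment 2 were lower and 0 higher. The 10 endothelial markers were at 0.12, -0.13 and 0.06 in the vehicle rats and -0.39, -0.53 and -0.48 in the E2 rats, and 0 passed in limma (8 lower and 0 higher before adjustment). The methods' t-test gave 1 lower and 0 higher. Pecam1 and Cdh5, defining endothelial genes, did not pass (-0.65 and -0.52, adjusted p = 0.11 and 0.16). The 10 markers of pericytes and vascular smooth muscle were at 0.06, -0.03 and -0.07 in the vehicle rats and -0.29, -0.43 and -0.34 in the E2 rats. Of these Abcc9 alone fell, a call lost without E2 rats 1, 2 or 3, vehicle rats 1, 2 or 3 or E2 + 3-MC rats 1, 2 or 3 (largest adjusted p = 0.19). Myeloid (-0.20, -0.42 and 0.76 in the vehicle rats and -0.54, -0.49 and -0.20 in the E2 rats) and lymphocyte markers (-0.04, -0.30 and 0.32 in the vehicle rats and -0.46, -0.23 and -0.29 in the E2 rats) differed as much within the vehicle group as between groups, with vehicle rat 3 the highest in both. The 14 skeletal muscle markers ranged most, at 1.64, 2.03 and -3.79 in the vehicle rats and -0.32, -2.73 and -1.20 in the E2 rats. Vehicle rat 3 was thus the lowest of the 6 for muscle. With the muscle level as a covariate, 290 probe sets rose and 101 fell. Of 177 genes that passed in lists or outside cell division, milk and lipid, 151 passed with this covariate and 26 did not. The part of these marker differences in the changes of single genes above, and of the transporters, enzymes, factors and matrix genes that follow, was not tested.

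**Figure D2:**
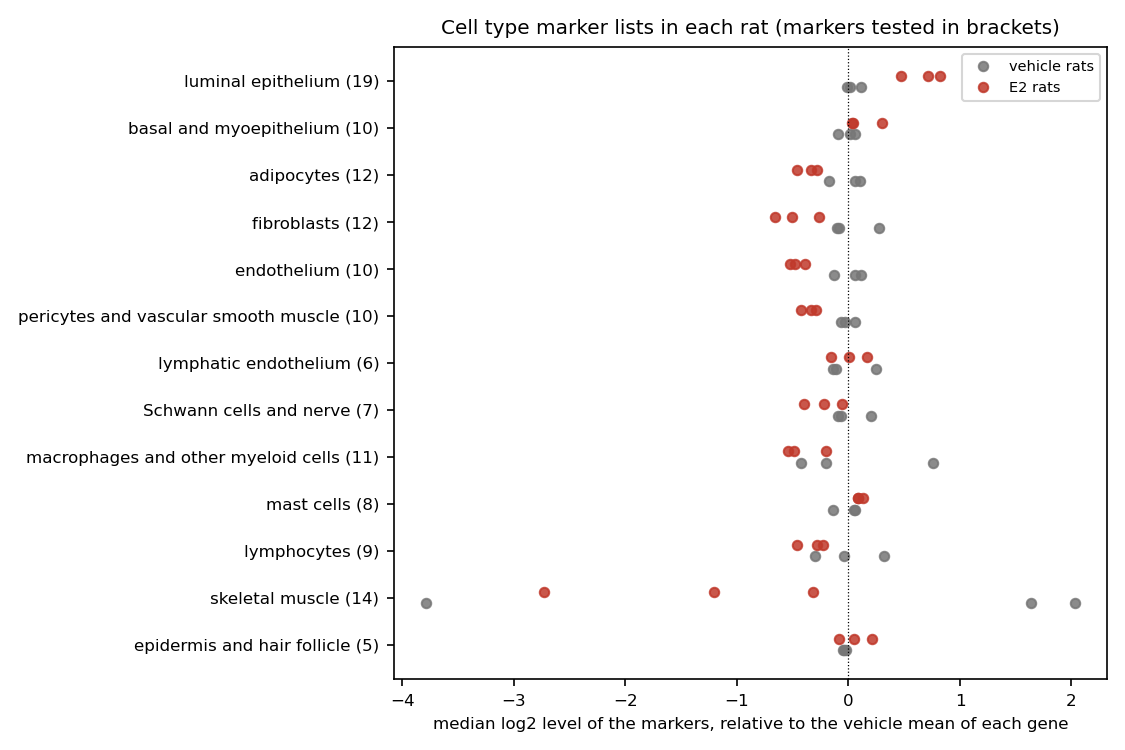
Level of each cell type marker list in each of the 6 rats, as the median log2 difference of its markers from the vehicle mean, with the number of markers tested in brackets. E2 rats (red) lie above vehicle rats (grey) for luminal epithelium (from 0.47 to 0.82) and below them for adipocytes, fibroblasts, endothelium and pericytes, while skeletal muscle runs from -3.79 to 2.03 among vehicle rats.

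Of the transporters 4.08% passed, against 1.96% of all genes, and those that rose include water, sodium and potassium channels of epithelia. Over 368 transporter and channel genes, 8 rose and 7 fell, with a median change of -0.01 on the log2 scale against 0.02 for all genes. The ion and water channels held most of the rises, at 5 of 48 members. Besides Aqp5 and Clca1 these were 2 subunits of the epithelial sodium channel and a potassium channel. Scnn1a, the pore-forming α subunit, read 65.6, 66.5 and 68.5 in the vehicle rats and 183, 208 and 196 in the E2 rats and rose 2.55-fold (log2 change 1.35, SE 0.20, adjusted p = 0.0044). Scnn1g, the γ subunit, rose by 1.17 on the log2 scale (adjusted p = 0.028) and the potassium channel Kcnk1 by 0.82 (adjusted p = 0.024). The β subunit Scnn1b was at 313 ± 52.9 in vehicle and 556 ± 40.5 in E2 rats (mean ± SD, n = 3 each) and missed the threshold (log2 change 0.81, adjusted p = 0.056). All 3 subunits thus had higher means in E2 rats, and 2 of them passed.

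Lrp2, megalin, an endocytic receptor that takes up vitamin carriers, read 20.5, 18.2 and 10.8 in the vehicle rats and 70.9, 76.1 and 64.6 in the E2 rats and rose 2.68-fold (log2 change 1.42, SE 0.22, adjusted p = 0.0060). Slc44a4, a choline transporter-like protein, read 121, 103 and 132 in the vehicle rats and 289, 278 and 247 in the E2 rats (log2 change 1.09, SE 0.17, adjusted p = 0.0067). In both, the lowest E2 rat was above the highest vehicle rat. The vehicle readings of Lrp2 lay near the constant added to each intensity before the log2, so its fold value depends on that constant. Abcg2, the efflux pump that secretes riboflavin and drugs into milk, rose by 0.83 (adjusted p = 0.030). The falls included the glucose carrier of fat and muscle. Slc2a4, the insulin-responsive glucose transporter GLUT4, read 169, 199 and 209 in the vehicle rats and 93.4, 93.7 and 81.9 in the E2 rats and fell 1.97-fold (log2 change -0.98, SE 0.14, adjusted p = 0.0044). Abca8a, an ABC transporter of the A class, read 741, 734 and 528 in the vehicle rats and 309, 297 and 343 in the E2 rats (log2 change -1.03, SE 0.16, adjusted p = 0.0060). Each fell in all 3 E2 rats relative to all vehicle rats. Smaller falls were found for the neutral amino acid transporter Slc7a10 (-0.83, adjusted p = 0.015), the mitochondrial citrate carrier Slc25a1 (-0.81, adjusted p = 0.028), the orphan carrier Slc16a14 (-0.63, adjusted p = 0.029), the water channel Aqp1 of vessels (-0.64, adjusted p = 0.025) and the sulfonylurea receptor Abcc9 (-0.69, adjusted p = 0.039). Second probe sets of Slc25a1 (-0.24, adjusted p = 0.69) and Abcc9 (-0.55, adjusted p = 0.17) did not pass. Bright members that missed the threshold were the amino acid transporter heavy chain Slc3a2 (0.02, adjusted p = 0.97), the adipocyte glycerol channel Aqp7 (-0.27, adjusted p = 0.72) and the zinc transporter Slc30a4 (0.64, adjusted p = 0.11). Aqp5, Clca1, Scnn1a, Lrp2, Slc44a4, Slc2a4 and Abca8a passed in every fit without 1 rat. The class count of rises was 5 without E2 rats 1 or 2 or vehicle rat 3, and that of falls 2 without E2 rats 1 or 2, 3 without E2 rat 3, and 4 without vehicle rats 1 or 3.

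Among 437 genes of the enzyme lists, which also take in inhibitors of proteases and carriers of retinoids, 13 rose and 3 fell (3.66% against 1.96% of all genes), with a median change of -0.04. The rises were scattered over single members of large families, while the families as a whole had medians near that of all genes. Cyp2e1 and Cyp24a1, the enzyme that degrades active vitamin D, were the 2 of 47 cytochromes P450 that rose. Cyp24a1 read 42.7, 31.5 and 39.0 in the vehicle rats and 124, 84.4 and 89.2 in the E2 rats (log2 change 1.09, SE 0.23, adjusted p = 0.033). At an unadjusted p under 0.05, limma had 941 of all 12420 genes higher and 713 lower. None of 28 conjugating enzymes and none of 89 glycosyl- and sulfotransferases passed in limma. At that unadjusted p, 1 and 7 of these members were higher and 5 and 6 lower. By the methods' t-test without adjustment, 0 and 1 rose and 1 and 1 fell. The brightest conjugating enzymes were Mgst1 (-0.33, adjusted p = 0.35), Gstp1 (0.18, adjusted p = 0.74) and Gstm2 (-0.57, adjusted p = 0.23), all of glutathione conjugation. Has2, which makes hyaluronan, was at 116 ± 46.3 and 231 ± 46.9 and missed the threshold (0.95, adjusted p = 0.10).

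In amine and amino acid metabolism, Tph1 was joined by Cth, which makes cysteine and hydrogen sulfide, and by Sms, spermine synthase. Cth read 66.4, 50.1 and 40.9 in the vehicle rats and 115, 129 and 103 in the E2 rats (log2 change 0.96, SE 0.18, adjusted p = 0.019). Sms read 271, 196 and 253 in the vehicle rats and 469, 488 and 392.02 in the E2 rats (log2 change 0.87, SE 0.17, adjusted p = 0.025), and both other probe sets of Sms rose as well (0.88 and 0.90). Monoamine oxidase B, which breaks down amines, fell (Maob, -0.70, adjusted p = 0.0456). The call of Maob was lost without E2 rats 1, 2 or 3, vehicle rats 1 or 3 or E2 + 3-MC rats 1, 2 or 3. It was also lost with the skeletal muscle level as a covariate. Aox3, Smpdl3a, Aldoc, Aadat and Gpx2 are enzymes outside these lists and are not in the counts. Proteases and their inhibitors held 7 rises and 1 fall, that of Mmp27, among 165 members (4.85% passed, against 1.96% of all genes). Their rises numbered 1 without E2 rat 2, 2 without E2 rat 1 or vehicle rat 1, and 4 without E2 rat 3 or vehicle rats 2 or 3. Serpinb9, an inhibitor of granzyme B, read 248, 179.8 and 196 in the vehicle rats and 741, 679 and 591 in the E2 rats and rose 3.08-fold (log2 change 1.62, SE 0.19, adjusted p = 0.0010). St14, the epithelial membrane protease matriptase, read 132, 191 and 209 in the vehicle rats and 347, 393 and 330.5 in the E2 rats (log2 change 0.97, SE 0.16, adjusted p = 0.010). Both groups were well apart for Serpinb9 and closer for St14. Further rises were those of the inhibitors Spink8 (0.99, adjusted p = 0.032), Serpinb5 or maspin (0.95, adjusted p = 0.023) and Cst6 (0.70, adjusted p = 0.0456), and of the proteases Tmprss4 (0.86, adjusted p = 0.033) and Adamts3 (0.64, adjusted p = 0.032, with a second probe set at 0.36, adjusted p = 0.22). Serpina3n, an acute phase serpin, did not pass although the groups were apart, with 1645, 1129 and 2522 in the vehicle rats and 688, 466 and 915 in the E2 rats (log2 change -1.31, adjusted p = 0.095). Bco2, Tph1, Cyp2e1, Serpinb9 and Rbp4 passed in every fit without 1 rat. The count of genes of the enzyme lists that rose was 4 with E2 rat 2 left out, 5 with E2 rat 1 left out and 7 with vehicle rats 1 or 2 left out, and of those that fell 1 with E2 rats 1, 2 or 3, vehicle rats 1 or 3 or E2 + 3-MC rats 1, 2 or 3 left out and 5 with 3-MC rat 1 left out.

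Of the genes of the transcription factor lists, which include signalling genes of the immediate early response such as Dusp1, 4.22% passed, against 1.96% of all genes, and those that rose include Tfap2a, Foxa1 and Gata3, which are known from mammary epithelium. Over these 308 genes, 9 rose and 4 fell (Pparg, Klf4, Klf2 and the phosphatase gene Dusp1), with a median of 0.02. The 54 mammary lineage factors had a median of 0.25, with 4 rises. Tfap2a, a factor of the AP-2 family, read 172, 265 and 205 in the vehicle rats and 559, 590.3 and 428 in the E2 rats and rose 2.37-fold (log2 change 1.24, SE 0.19, adjusted p = 0.0067). Foxa1, which opens chromatin for the estrogen receptor, read 55.9, 76.0 and 70.7 in the vehicle rats and 141, 193 and 120.0 in the E2 rats (log2 change 0.99, SE 0.17, adjusted p = 0.010). Gata3, a factor of luminal identity, read 642, 959 and 774 in the vehicle rats and 1751, 1521 and 1278.1 in the E2 rats (log2 change 0.93, SE 0.17, adjusted p = 0.018). In all of them the E2 rats were above the vehicle rats, with smaller gaps than for Pgr. Msx2 (0.73, adjusted p = 0.036), the Hippo pathway partner Tead2 (0.87, adjusted p = 0.0069), Etv4 (0.65, adjusted p = 0.028) and Irx1 (0.64, adjusted p = 0.044) rose less. Elf5, a factor of the alveolar lineage, was at 893 ± 169 and 1372 ± 63.2 and missed the threshold (0.63, adjusted p = 0.056).

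Among 33 nuclear receptors, Pgr rose and Pparg, the receptor that directs fat cell differentiation, fell (6.06% passed, against 1.96% of all genes). Pparg read 783, 635 and 528 in the vehicle rats and 281, 314 and 329.9 in the E2 rats and fell 2.03-fold (log2 change -1.02, SE 0.19, adjusted p = 0.016). Esr1, which encodes estrogen receptor α itself, read 447, 323 and 250.2 in the vehicle rats and 397, 294 and 338 in the E2 rats, with overlapping groups (log2 change 0.04, SE 0.30, adjusted p = 0.98), and its second probe set changed by 0.25 (adjusted p = 0.70). Esr2, the other estrogen receptor, had no probe set among those tested under its own symbol. The vitamin D receptor Vdr was at 379.9 ± 51.9 in vehicle and 618 ± 72.4 in E2 rats (0.68, adjusted p = 0.063), and the glucocorticoid receptor Nr3c1 changed by -0.14 (adjusted p = 0.83).

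Immediate early genes, which cells switch on within minutes of a stimulus, had a median change below that of all genes 24 hr after the last dose. It was -0.19 over 39 genes, with 3 falls and 1 rise (10.3% passed, against 1.96% of all genes). These falls numbered 1 without E2 rats 1, 2 or 3 or vehicle rat 1. The rise was lost without E2 rats 1 or 2 or vehicle rats 1 or 2. Dusp1, a phosphatase that switches off MAP kinases, read 956, 953 and 764 in the vehicle rats and 472, 400.0 and 424 in the E2 rats and fell 2.02-fold (log2 change -1.01, SE 0.15, adjusted p = 0.0044). The zinc finger factors Klf4 (-0.67, adjusted p = 0.029) and Klf2 (-0.66, adjusted p = 0.0483) fell as well, and a second probe set of Klf4 did not pass (-0.63, adjusted p = 0.28). Egr2 moved the other way, with 102, 93.8 and 168 in the vehicle rats and 470.3, 384 and 241 in the E2 rats (log2 change 1.46, SE 0.26, adjusted p = 0.016). Egr1 and Jun did not pass (-0.19 and -0.41, adjusted p = 0.79 and 0.18). Pgr, Tfap2a and Dusp1 passed in every fit without 1 rat. The count of genes of these lists that rose was 2 without E2 rat 2, and 4 without E2 rat 1 or vehicle rat 1, and of those that fell 1 without E2 rats 1 or 2 or vehicle rat 1, and 2 without E2 rat 3.

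In the epidermal growth factor family, ligands and receptors that act between mammary epithelial cells, 3 of 13 genes tested rose, against 1.51% of all genes, and none fell (median 0.21). Areg stood far above the other ligands in its change. Btc, betacellulin, read 105, 81.8 and 77.5 in the vehicle rats and 212, 190.5 and 162 in the E2 rats and rose 1.97-fold (log2 change 0.98, SE 0.15, adjusted p = 0.0067). The ligands Egf (-0.14, adjusted p = 0.77), Tgfa (0.06, adjusted p = 0.92), Ereg (0.21, adjusted p = 0.75), Hbegf (-0.19, adjusted p = 0.72), Nrg1 (0.08, adjusted p = 0.94) and Nrg2 (-0.19, adjusted p = 0.59) did not pass. Of the receptors, Erbb4, which binds neuregulins and betacellulin, read 76.8, 53.0 and 60.9 in the vehicle rats and 146, 119 and 114 in the E2 rats (log2 change 0.84, SE 0.19, adjusted p = 0.038). Its call was lost without E2 rats 1, 2 or 3, vehicle rats 1, 2 or 3, E2 + 3-MC rat 3 or 3-MC rat 3 (largest adjusted p = 0.19), while those of Areg and Btc held in every such fit. Erbb3 (0.62, adjusted p = 0.14), Erbb2 (0.34, adjusted p = 0.30) and Egfr (0.25, adjusted p = 0.56) had higher means and did not pass, and the feedback inhibitor Errfi1 was at -0.41 (adjusted p = 0.62).

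Among the other secreted factors, an opioid precursor, stanniocalcin 2, an interleukin and 2 activators of Wnt pathways rose, while a carrier of insulin-like growth factors, the Wnt antagonists, a bone morphogenetic protein, Angptl8, a chemokine and a fat hormone fell. Of the genes of the secreted factor lists, which also hold receptors such as Erbb4 and Cd14, 6.72% passed, against 1.96% of all genes. Counting the epidermal growth factor family, 10 of 253 genes of these lists rose and 7 fell (median -0.06). Of 107 growth factors and their modulators, Rspo3, which strengthens Wnt signals, and Wnt5a, a Wnt ligand, rose. Rspo3 read 67.5, 44.5 and 45.4 in the vehicle rats and 151, 127 and 167 in the E2 rats (log2 change 1.27, SE 0.28, adjusted p = 0.038). Wnt5a changed by 0.76 (adjusted p = 0.022). Igfbp3, Sfrp2, Sfrp4, Angptl8 and the bone morphogenetic protein Bmp2 (-0.68, adjusted p = 0.025) fell. Rises of this list numbered 0 without E2 rats 1 or 2 or vehicle rat 2. They numbered 1 without E2 rat 3, vehicle rats 1 or 3 or E2 + 3-MC rat 1, and 1 with the muscle covariate. Its falls numbered 0 without E2 rats 1 or 2 or vehicle rat 1, and 3 without E2 rat 3 or vehicle rat 3. The brightest members, Igfbp5 (-0.05, adjusted p = 0.95), Igfbp7 (-0.45, adjusted p = 0.18) and Igf1 (-0.36, adjusted p = 0.36), did not pass.

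Penk, the precursor of enkephalin peptides, read 108, 67.2 and 194 in the vehicle rats and 376, 379 and 406 in the E2 rats and rose 3.11-fold (log2 change 1.64, SE 0.25, adjusted p = 0.0067). Stc2, stanniocalcin 2, a secreted glycoprotein, read 133, 92.9 and 79.7 in the vehicle rats and 299.9, 368 and 281 in the E2 rats and rose 2.85-fold (log2 change 1.51, SE 0.19, adjusted p = 0.0013). Both sets of E2 values were clear of the vehicle values. Retn, resistin, a hormone of rodent fat cells, read 1149.8, 934 and 862 in the vehicle rats and 256, 319 and 365 in the E2 rats and fell 3.04-fold (log2 change -1.60, SE 0.19, adjusted p = 0.0010). Adipoq (-0.34, adjusted p = 0.32) and Lep (-0.78, adjusted p = 0.40), for adiponectin and leptin, did not pass. Il18, an interleukin stored in epithelia, read 114, 88.8 and 161 in the vehicle rats and 378, 378 and 349 in the E2 rats (log2 change 1.52, SE 0.31, adjusted p = 0.028), and Ccl11 fell. For Il18 the call was lost in fits without E2 rats 1, 2 or 3 or vehicle rat 1. The B cell chemokine Cxcl13 was at 1636 ± 186 in vehicle and 800.0 ± 238 in E2 rats and did not pass (-1.06, adjusted p = 0.11). Cx3cl1 was just outside the threshold (0.86, adjusted p = 0.0501). Of 30 antimicrobial and acute phase genes, the whey acidic protein Wap (1.74, adjusted p = 0.021) and the lipopolysaccharide receptor Cd14 (0.84, adjusted p = 0.037) rose. Thus 6.67% of this list passed, against 1.96% of all genes. The call of Cd14 was lost without E2 rats 1, 2 or 3, vehicle rats 1 or 2 or E2 + 3-MC rat 1. It was also lost with the muscle covariate. Cd14 alone passed among the 11 myeloid markers, whose median change was -0.39. Lcn2 and Lbp did not pass (0.39 and 0.14, adjusted p = 0.25 and 0.81). Areg, Btc, Penk, Stc2 and Retn passed in every fit without 1 rat. The rises numbered 4 without E2 rats 1 or 2, and 5 without E2 rat 3 or vehicle rat 2, and the falls 1 without E2 rats 1 or 2 or vehicle rat 1, and 4 without E2 rat 3 or vehicle rat 3.

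Of the stroma genes 1.27% passed, against 1.96% of all genes. Of 157 genes for collagens, matrix glycoproteins, matrix processing and matrix receptors, 2 rose and 0 fell, and the median was -0.09. Smoc2, a secreted calcium-binding matrix protein, read 119, 112 and 138 in the vehicle rats and 279, 241 and 286 in the E2 rats and rose 2.05-fold (log2 change 1.04, SE 0.17, adjusted p = 0.0077), in every fit without 1 rat. The cell surface proteoglycan Sdc1, syndecan 1, read 236, 273 and 268 in the vehicle rats and 513, 443 and 336 in the E2 rats (log2 change 0.68, SE 0.15, adjusted p = 0.038), and its call was lost without E2 rats 1 or 2, vehicle rats 1, 2 or 3, E2 + 3-MC rats 1, 2 or 3 or 3-MC rat 3 (largest adjusted p = 0.19). The call of Sdc1 was also lost with the muscle covariate. Over all 12420 genes, limma had 941 higher and 713 lower at an unadjusted p under 0.05. None of 25 collagens passed in limma, with 0 higher and 3 lower at an unadjusted p under 0.05. The methods' t-test without adjustment called 0 of them higher and 0 lower. Col1a1, of the main fibre collagen, read 1768, 2243 and 2805 in the vehicle rats and 1324, 1615 and 1842 in the E2 rats (log2 change -0.50, adjusted p = 0.50). Col3a1 read 2172, 2309 and 3039 in the vehicle rats and 1327, 1732 and 2161 in the E2 rats (-0.53, adjusted p = 0.36). The groups overlapped for Col1a1 and were separated by a narrow margin for Col3a1. Among 55 matrix glycoproteins, 17 were lower and 7 higher at an unadjusted p under 0.05. The lower ones include Nid2 of basement membrane (-0.77, adjusted p = 0.063) and Fbn1, fibrillin 1 (-0.63, adjusted p = 0.073), and the higher ones Postn, periostin (0.65, adjusted p = 0.091). Mmp14, a membrane metalloproteinase, was at 0.58 (adjusted p = 0.10). Among 48 genes of matrix crosslinking and turnover none passed in limma, with 6 higher and 9 lower at an unadjusted p under 0.05, and 1 higher and 2 lower in the methods' t-test without adjustment. The count of stroma genes that rose was 1 without E2 rats 1 or 2, vehicle rats 1 or 2, E2 + 3-MC rats 1, 2 or 3 or 3-MC rat 3, and of those that fell 1 without vehicle rat 2, E2 + 3-MC rat 3 or 3-MC rat 2, and 2 without E2 + 3-MC rat 1.

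**Figure D3:**
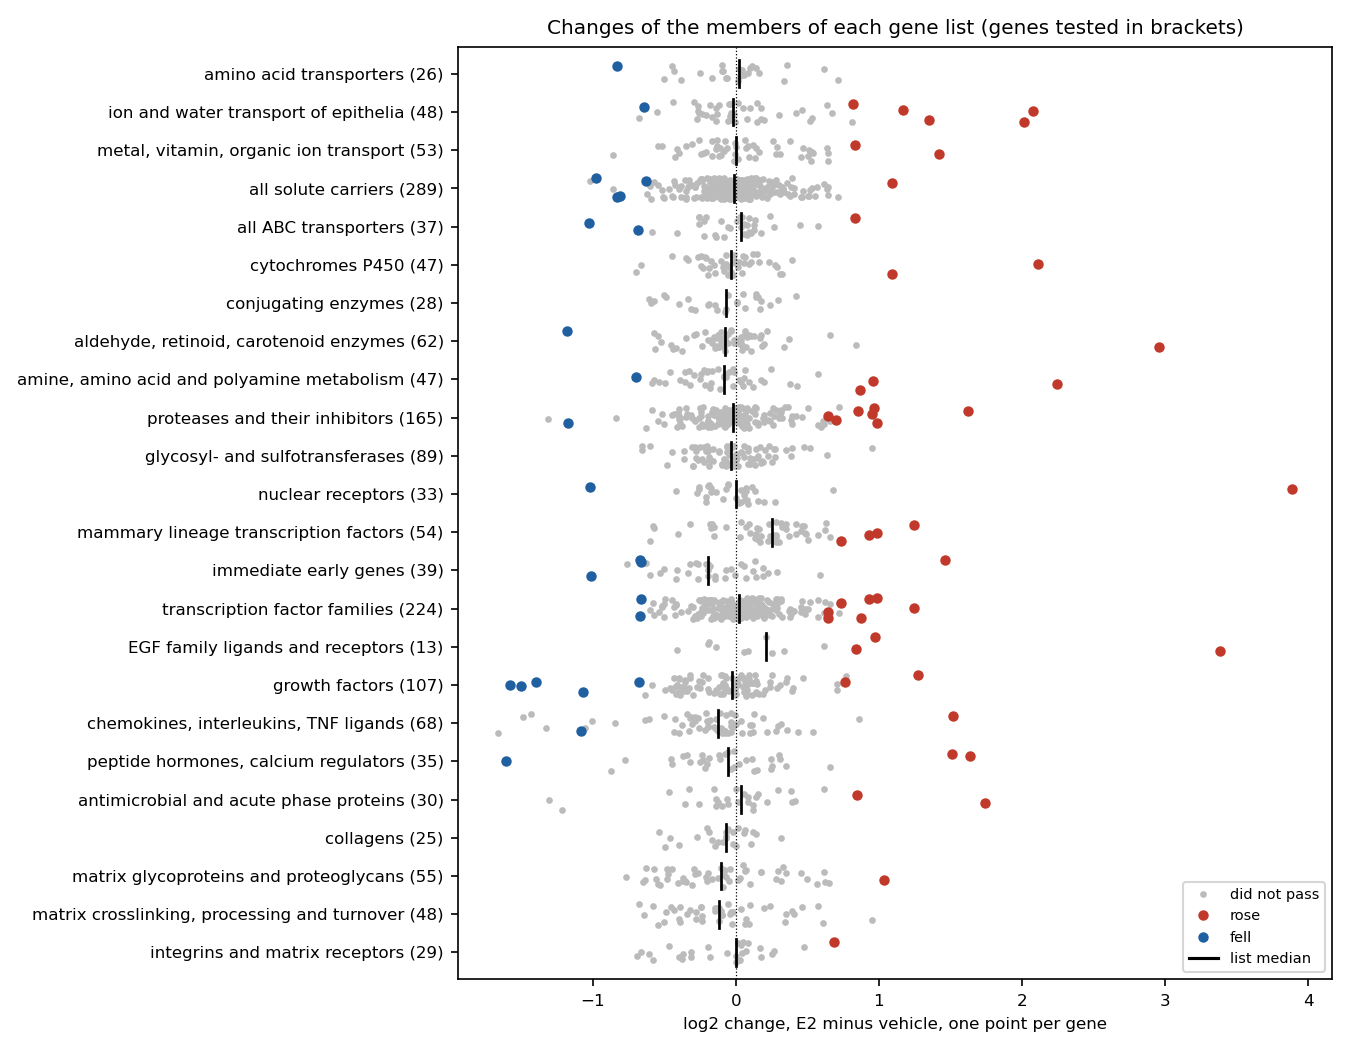
Log2 change (E2 minus vehicle) of every tested member of 24 gene lists, 1 point per gene, with genes that rose in red, genes that fell in blue, the others in grey, and a black tick at the list median. The medians run from -0.19 (immediate early genes) to 0.25 (mammary lineage factors), and single genes such as Pgr, Areg and Bco2 stand far to the right.

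Gene families seen among the genes that passed were then counted whole, a choice made after their values were seen, so the counts only describe them beside the 1.51% of all genes that rose. Of 27 histone genes 8 rose (H1f5, Hist1h2ail1, H2bc12, Hist1h2bg, H2ac21, Hist2h3c2, H1f1 and H2ac4) and the median was 0.82. Histone genes of the replication-dependent kind are transcribed in S phase and their transcripts lack the usual poly(A) tail, and close copies may share probes. The count was 1 without E2 rat 2 or vehicle rat 1, 2 without vehicle rat 2, 4 without E2 rats 1 or 3, 5 without E2 + 3-MC rat 2, and 13 without vehicle rat 3. Among 5 Clca genes, Clca5 read 253, 291 and 247 in the vehicle rats and 1005, 984 and 513 in the E2 rats (log2 change 1.54, SE 0.29, adjusted p = 0.019) and Clca4l rose by 1.12 (adjusted p = 0.029), next to Clca1, while Clca2 and Clca4 did not pass (-0.01 and -0.13, adjusted p = 0.99 and 0.83). Only Clca1 passed in every fit, and the count was 1 without E2 rats 1 or 2 or vehicle rat 1. Of 36 keratins, Krt14, Krt16 (1.33, adjusted p = 0.0071), Krt15 (1.31, adjusted p = 0.036), Krt17, Krt23 (0.97, adjusted p = 0.035) and Krt18 (0.89, adjusted p = 0.029) rose, a mix of basal and luminal keratins. This count was 0 without E2 rat 2, 1 without E2 rat 1 or vehicle rats 1 or 2, and 2 without vehicle rat 3. Of 20 claudins, which seal tight junctions, Cldn7 (0.96, adjusted p = 0.015), Cldn8 (0.87, adjusted p = 0.038) and Cldn3 (0.61, adjusted p = 0.036) rose, a count of 0 without E2 rats 1 or 2 or vehicle rat 1, and 1 without E2 rat 3, vehicle rats 2 or 3 or E2 + 3-MC rat 1.

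Other genes that passed and belong to none of the lists include several with tight groups, again named after their values were seen. Plet1, a surface protein of progenitor-type epithelium, read 502, 424 and 463 in the vehicle rats and 1514, 1409.8 and 1287 in the E2 rats and rose 2.96-fold (log2 change 1.57, SE 0.19, adjusted p = 0.0010). Gpx2, an epithelial glutathione peroxidase, read 68.9, 60.9 and 92.3 in the vehicle rats and 293, 275 and 159 in the E2 rats (log2 change 1.49, SE 0.23, adjusted p = 0.0060). Cd200, a surface ligand that restrains myeloid cells, read 443, 458 and 469 in the vehicle rats and 1277.5, 1235 and 1134 in the E2 rats (log2 change 1.38, SE 0.15, adjusted p = 0.00055). None of these groups overlapped. Ret, the receptor tyrosine kinase for the glial cell line-derived neurotrophic factor family, read 91.3, 76.6 and 91.7 in the vehicle rats and 219.7, 206 and 171 in the E2 rats (log2 change 1.07, SE 0.15, adjusted p = 0.0040). Aldoc, an aldolase of glycolysis, rose by 1.37 (adjusted p = 0.0038), Aadat, an aminotransferase of lysine and kynurenine breakdown, by 1.38 (adjusted p = 0.0036), and the death domain receptor Tnfrsf21 by 1.04 (adjusted p = 0.0031). These 7 genes passed in every fit without 1 rat. Aldoa, another aldolase of glycolysis, was counted in the lipid list and fell (-1.01, adjusted p = 0.036). Among the falls, Ramp1, which pairs with the receptor of calcitonin gene-related peptide, changed by -0.87 (adjusted p = 0.013), a call lost without E2 rats 1 or 2 or vehicle rat 1 (largest adjusted p = 0.072). The complement gene C6 changed by -0.95 (adjusted p = 0.019), lost without E2 rats 1 or 2 or vehicle rat 1 (largest adjusted p = 0.11). The endothelial gene Plvap changed by -0.77 (adjusted p = 0.039), lost without E2 rats 1, 2 or 3, vehicle rats 1 or 3, E2 + 3-MC rats 1 or 3 or 3-MC rat 3 (largest adjusted p = 0.15).

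E2 was also given to rats that received 3-MC, an aryl hydrocarbon receptor ligand, and the groups of E2 + 3-MC and 3-MC hold other rats than those of E2 and vehicle. Both comparisons come from 1 fit and share its estimate of the spread, so their tests are not independent. The second comparison asks whether the same genes moved in another set of animals, in the presence of that compound. Of the 187 genes that rose with E2 alone, 177 were higher with E2 in the 3-MC rats (94.7%), against 48.4% of all genes. Of the 56 that fell, 53 were lower and 3 higher (5.36%, against the same 48.4%). The 243 genes were picked by their size in the first comparison, and in the second they were smaller, with medians of 0.32 in place of 1.07 for genes that rose and -0.56 in place of -0.98 for genes that fell. Only 13 genes passed in the 3-MC rats (0.105%), and 12 of them were among the 243. Outside division, milk and lipid, 132 of 135 genes that rose and 33 of 35 that fell kept their direction. Over all tested members, the median of the division list was 0.64 with E2 alone and 0.03 in the 3-MC rats. It was 0.54 and 0.34 for the milk list, and -0.31 and -0.24 for the lipid list. Pgr read 76.6, 27.5 and 67.8 in the 3-MC rats and 619, 411 and 575 in the E2 + 3-MC rats (log2 change 2.96, adjusted p = 0.00028). Areg read 70.0, 42.1 and 62.2 in the 3-MC rats and 356, 288 and 697 in the E2 + 3-MC rats (2.56, adjusted p = 0.0017). Cyp2e1 read 68.4, 28.4 and 22.05 in the 3-MC rats and 272, 204 and 317 in the E2 + 3-MC rats (2.40, adjusted p = 0.0043). In each of them all 3 E2 + 3-MC rats lay above all 3-MC rats.

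Some changes were smaller in the 3-MC rats. H1f5 was at 0.11 in place of 2.13, Dusp1 at -0.14 in place of -1.01, and Smpdl3a at -0.33 in place of -1.54. The interaction test, of a difference in the E2 effect between rats with and without 3-MC, called no probe set (limma, 0 of 23371 at an adjusted p under 0.05, the smallest being 0.45), while 1032 had an unadjusted p under 0.05. Interaction terms were -2.02 for H1f5 (adjusted p = 0.89), 0.88 for Dusp1 (adjusted p = 0.89) and 1.21 for Smpdl3a (adjusted p = 0.89), none of which passed.

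**Figure D4:**
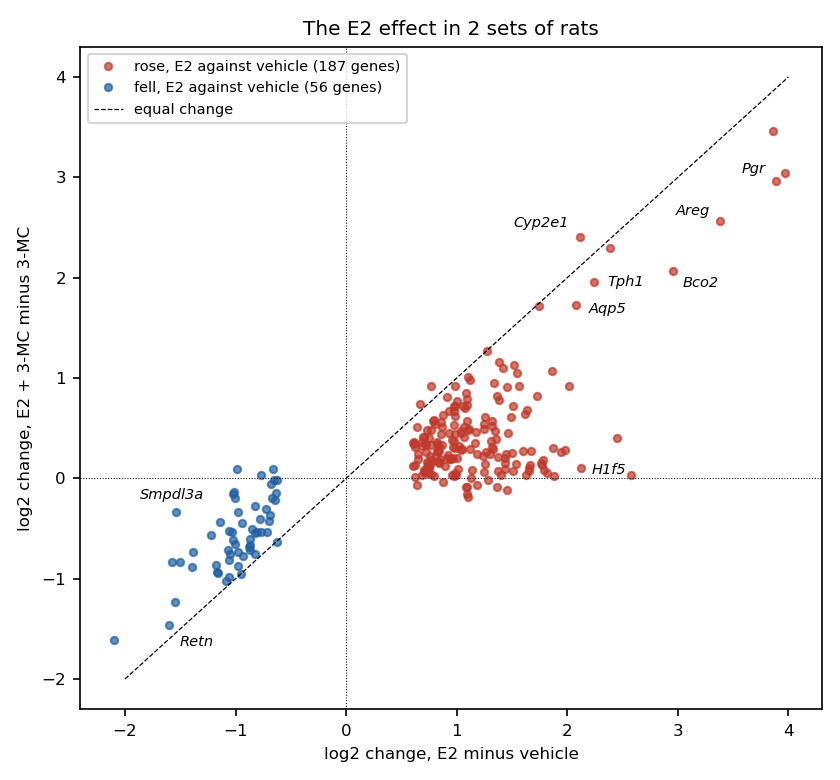
Log2 change of the 243 genes that passed with E2 alone (horizontal axis, E2 minus vehicle) against their change in other rats (vertical axis, E2 + 3-MC minus 3-MC), with genes that rose in red and genes that fell in blue and the dashed line at equal change. Most points share the sign of both axes (177 of 187 and 53 of 56) and lie nearer to 0 on the vertical axis, while Pgr keeps a large change on both axes (3.89 and 2.96) and H1f5 lies near 0 on the vertical axis.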

How the data were processed

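Total RNA of whole mammary glands was measured in 12 rats, 1 array each, 3 treated with vehicle, 3 with E2, 3 with 3-MC and 3 with both compounds. The authors summarized the probe signals with PLIER into a linear signal intensity per probe set, and these deposited intensity values are the ones used here. Their methods also name quantile normalization, a baseline set to the control median and a filter that dropped probe sets under the 20th percentile. None of these is visible in the values, whose array medians ran from 85.7 to 99.8 in the vehicle and E2 rats and which still hold all 29214 probe sets. Of these, 15310 carry 1 gene symbol, 323 several and 13581 none. Symbols came from the platform annotation, and 15279 matched an Entrez entry of RefSeq.

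From the intensities, log2(intensity + 16) was taken without further normalization. The 23371 probe sets with a mean above the 20th percentile entered a linear model of all 12 arrays with 4 group means (limma 3.58.1 under R 4.3.3), which takes the spread from all groups. All tests were two-sided, with Benjamini-Hochberg adjustment over these probe sets. An exact permutation test of 3 rats against 3 cannot go below p = 0.10, so none was used. Data were also simulated for these 4 groups of 3, with normal noise drawn separately for each probe set. Of probe sets changed by a log2 of 1, 76% were called, and of those changed by 2, 98%. There were 7 false calls among the unchanged rest of the 23371. The simulated rats share no variation across genes, such as that of muscle content, so these rates cannot be taken over to the real arrays. The number of arrays limits the precision.

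Named were the 12 largest rises and 12 largest falls without overlap outside cell division, milk and lipid, up to 5 members per list and direction that passed (or the 3 with the smallest p), the 3 brightest that did not, and all members of the EGF family and the steroid receptors Esr1, Esr2 and Pgr (a further gene of the rule is not reported here). Other genes the text names were chosen after their values were seen. The comparison, lists and rule were chosen with earlier results of these data known. Lists of lymphatic endothelium (level -0.12, -0.14 and 0.25 in the vehicle rats and 0.17, 0.01 and -0.16 in the E2 rats), nerve (0.20, -0.10 and -0.07 in the vehicle rats and -0.22, -0.05 and -0.40 in the E2 rats), mast cells (0.06, -0.14 and 0.05 in the vehicle rats and 0.08, 0.08 and 0.13 in the E2 rats) and epidermis (-0.05, -0.04 and -0.02 in the vehicle rats and 0.21, 0.05 and -0.09 in the E2 rats) held no gene that passed. Promoter windows are those of RefSeq on GRCr8, the first listed for each gene, with no protein sequences used. Alternatives covered the filter, the pseudocount, scaling, the probe set per gene, array weights, a replicate block, skeletal muscle as a covariate, the methods' t-test and leaving out each rat. Figures were drawn in Python 3.11.15 with matplotlib 3.10.9.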

Additional observations from a re-analysis of the deposited data

How the results depend on the processing

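The main result is 303 probe sets that rose and 67 that fell. Counts stayed within 1.5 times of these with no filter, pseudocounts of 1 and 32, 1 probe set per gene, limma's trend and robust settings and the fit of the vehicle and E2 arrays alone. The count of rises alone also did so with arrays centred on their medians, quantile normalization applied again, the replicate block and the muscle covariate. Rises numbered 175 at a 2-fold threshold, 198 with the filter at the 50th percentile and 464 with array weights. Falls numbered 30 at a 2-fold threshold, 188 with array weights, 106 with centred arrays, 108 with quantile normalization applied again and 101 with the muscle covariate. The methods' t-test gave 7 rises and 0 falls with adjustment (703 probe sets at an unadjusted p under 0.05 with the 1.5-fold filter, 495 higher and 208 lower). Leaving out 1 rat gave 74 to 357 rises and 15 to 119 falls, the fewest of both without E2 rat 2. The count of rises moved by over 1.5 times without E2 rats 1 or 2 or vehicle rats 1 or 2, and that of falls without any E2 rat or vehicle rats 1 or 3. The cause of these shifts was not tested. With a replicate block, 375 rose and 104 fell, but rats of the same number did not deviate together (correlations 0.20, -0.20 and 0.04), so the numbers were not taken as pairs. Of 177 genes that passed in lists or outside cell division, milk and lipid, 82 passed at a 2-fold threshold, 151 with the muscle covariate, 168 with centred arrays, 134 with the vehicle and E2 arrays alone, 4 by the methods' t-test with adjustment and 45 without E2 rat 2, and none changed sign under any alternative in which it was tested. With the muscle covariate, to which it contributes, the muscle gene Tnnc2 turned from -0.82 (adjusted p = 0.92) to 0.98 (adjusted p = 0.013), and without 1 rat it ran from -3.35 to 0.51 and never passed.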
